A study of Mus musculus with 6 samples.

Results

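The genes described here encode 3 groups of enzymes that put ubiquitin on proteins or take it off, measured in mouse egg cytoplasm and in blastocysts. They were chosen by name: every probe whose gene name in the array files starts with Ube2 or Uchl, or with Usp and a number, apart from Usp9x, Usp9y and Usp29. This gave 192 probes of 41174, for 83 genes of 27597, of which 31 are named Ube2, 5 Uchl and 47 Usp. A name is not a function: the probe named Uchl5ip belongs to Haus7, a subunit of the augmin complex of the spindle, Usp6nl encodes a Rab GTPase activating protein, and Usp52 is now Pan2, a subunit of an RNA deadenylase. The file's names are used for the members throughout, and Ube2d2 is now Ube2d2a.

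The series holds 6 single-colour Agilent arrays of B6C3 F1 mice, with no other genotype or treatment named in the labels. Ooplasts, which are eggs from which the nucleus has been removed, were profiled on 1 array from young and 1 from climacteric females (females at the end of reproductive life). Blastocysts, the embryos just before implantation, were profiled on 2 arrays from young and 2 from climacteric females. The replicates are called biological, but the labels name no animals and give neither the age of the females nor the number of ooplasts or embryos pooled or how the blastocysts were made, so p-values measure only the spread between these 6 samples. Since each ooplast group had 1 array, the stage tests shared 1 estimate of the spread over all groups, which leans on the blastocyst replicates. In these tests an age difference in ooplasts that blastocysts lack counts as spread. Replicate 1 of each of the 4 groups lay on slide 1, and replicate 2 of the blastocyst groups on slide 2. In bulk samples such as these, fewer cells of a type and less RNA per cell cannot be told apart.

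Ubiquitin is attached to proteins by a relay. An activating enzyme (E1) hands it to a conjugating enzyme (E2, the Ube2 genes), and a ligase (E3) directs it onto the substrate, singly or as chains whose linkage decides whether the protein goes to the proteasome or takes on another role. Deubiquitinases, among them the Usp and Uchl enzymes, cut ubiquitin off again, and a few E2 enzymes carry ubiquitin-like proteins such as Sumo or Nedd8 instead. In the mouse the egg's stored proteins and RNAs are replaced by products of the embryo's own genome between fertilisation and the blastocyst, and removal of egg proteins by ubiquitin is part of that replacement.

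Of 43379 spots that were not controls, between 42.2% and 57.3% stood well above background, fewer on the ooplast arrays, whose 75th percentile of signal was 235 and 238 against 721 to 1111 on the blastocyst arrays. The tissue labels were borne out by their oocyte and trophectoderm markers: all 10 oocyte markers were lower and all 8 trophectoderm markers higher in blastocysts. Of 6 markers of the inner cell mass and primitive endoderm, 4 were higher and 1 was lower. No member probe was saturated, and the number of arrays, not counting error, limits the precision. A level below is the log2 of a probe's processed signal minus the 75th percentile of its own array, so that 0 stands for that percentile. Levels of one probe can be compared between arrays, and levels of different probes cannot.

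The change from ooplast to blastocyst touched most of these genes and ran in both directions. Of the 73 members that could be tested, 26 rose (35.6%) and 28 fell (38.4%), with 19 not past the threshold (limma on all 6 arrays with age as a term, adjusted p under 0.05). The background was close to this: of all 15605 genes tested, 35.5% rose and 39.0% fell. The median difference was -0.42 over the members and -0.26 over all genes, and the latter ranged from -0.46 to -0.14 under other scalings of the arrays, so small differences are read against that median and not against 0. In 59 of the 73 genes (80.8%) every blastocyst array lay on 1 side of both ooplast arrays, as it did in 79.5% of all genes tested. The shares were alike in the Ube2 genes, with 11 up and 11 down of 28, and in the Usp genes, with 13 up and 16 down of 40. On slide 1 alone, which held both stages, 23 members (31.5%) rose and 26 (35.6%) fell, beside 32.1% and 30.1% of 16003 genes.

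**Figure D1:**
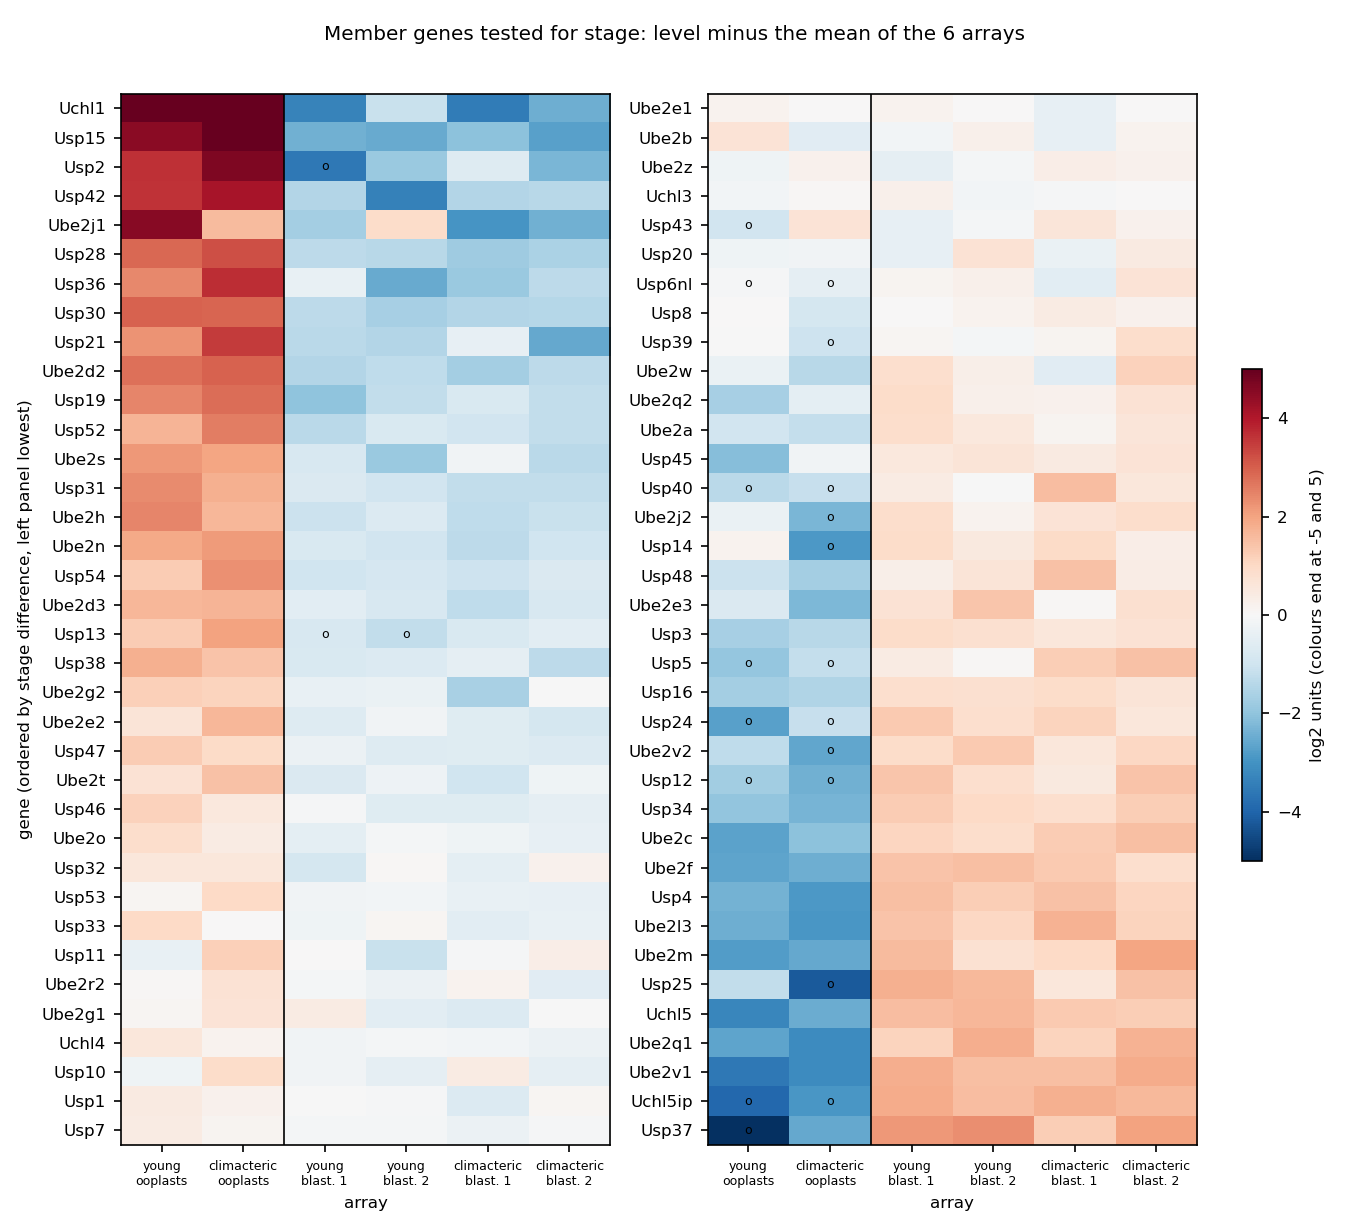
Each row is a member gene tested for stage and each column 1 of the 6 arrays. Colour gives the log2 level minus the mean of that gene's 6 levels, on a scale that ends at -5 and 5, and an open circle marks an array where the probe was not well above background. Genes are ordered by the difference between stages, from Uchl1 at the top left (-7.80) to Usp37 at the bottom right (5.83).

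The Uchl hydrolases, which cut ubiquitin from small adducts and precursors, held the largest fall among the members. Uchl1, a hydrolase abundant in eggs and neurons, had levels of 9.82 in young and 9.53 in climacteric ooplasts. In blastocysts it stood at 1.12 and 3.36 (young) and 0.98 and 2.03 (climacteric), far below both ooplast arrays. Uchl1 fell by 7.80 ± 0.66 on the log2 scale (SE, 2 ooplast and 4 blastocyst arrays, adjusted p from limma 8.82e-05), or 223-fold, and a second probe of the gene fell by 6.04. Uchl5, the hydrolase bound to the proteasome and to the Ino80 complex, moved the other way, from 0.75 and 1.53 in ooplasts to between 5.23 and 5.68 in the 4 blastocyst samples. Its rise was 4.29 ± 0.32 (adjusted p from limma 5.71e-05), and the stages did not overlap. Uchl3, which trims ubiquitin and Nedd8 precursors, had a stage difference of 0.06 whose sign changed with the scaling, down to -0.24 after quantile normalization. Its close relative Uchl4 was at -0.54 (adjusted p from limma 0.0828), past the threshold under 3 other scalings at -0.77 to -0.74, and a second Uchl4 probe went the other way and rose by 0.76 (adjusted p from limma 0.0275). Uchl5ip, the Haus7 probe, was not well above background in ooplasts and at 2.36 to 2.68 in blastocysts, a rise of at least 26.1-fold. Where a probe was not well above background in any sample of a stage, as here, such a bound sets the mean of the bright stage against the higher of the probe's own signal and the dimmest signal that was well above background on each array.

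The 250 bases before the RefSeq start of Uchl1, which fell, and of Uchl5, which rose, are shown because these relatives moved further apart than any other of the 22 pairs compared below. Both are read on the plus strand of GRCm38.p6, chr5:66675871-66676120 for Uchl1 and chr1:143777028-143777277 for Uchl5, with GC boxes (GGGCGG, either strand, overlaps counted) in capitals.
Uchl1: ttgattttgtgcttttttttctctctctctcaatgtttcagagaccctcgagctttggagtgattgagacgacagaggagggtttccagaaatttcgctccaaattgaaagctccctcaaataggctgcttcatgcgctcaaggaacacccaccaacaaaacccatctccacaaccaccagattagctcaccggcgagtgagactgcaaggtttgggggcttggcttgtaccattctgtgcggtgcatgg
Uchl5: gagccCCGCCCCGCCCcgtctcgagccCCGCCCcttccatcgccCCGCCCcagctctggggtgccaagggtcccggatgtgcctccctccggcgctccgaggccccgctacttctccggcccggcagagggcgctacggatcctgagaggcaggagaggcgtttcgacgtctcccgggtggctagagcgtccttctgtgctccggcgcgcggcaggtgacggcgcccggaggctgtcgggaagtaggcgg
The Uchl1 window held no GC box and 48.8% G and C, and the Uchl5 window held 4 GC boxes and 74.0% G and C. Over the 65 members with a promoter in the RefSeq table, 66.2% had a GC box within 250 bases, against 32.9% of all 27025 promoters, and both directions of change held it often: 14 of 22 members that rose and 17 of 22 that fell. A CCAAT box (CCAAT, either strand) stood in 26.2% of members and 34.5% of all promoters, and a TATA box (TATAAA, either strand) in 6.15% and 12.97%. An E-box (CANNTG) stood in 14 of 22 members that rose, 8 of 22 that fell and 66.0% of all promoters. The full set of promoters was not limited to genes detected here, and the shares among the genes tested for stage were not computed. A match of these letters is a description and not a binding site.

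Some conjugating enzymes carry ubiquitin-like proteins. Both E2 enzymes of Nedd8, the modifier that switches on cullin ligases, rose at their brightest probes. Ube2m went from -2.06 and -1.82 in ooplasts to 1.51 to 2.68 in blastocysts, a 16.1-fold rise (log2 SE 0.38, adjusted p from limma 0.00015). Ube2f rose by 3.81 ± 0.28, from -0.38 and -0.19 to between 3.09 and 3.74. Neither overlapped between stages. The 2 differences were 0.20 apart, which lay within the spread between arrays (exact permutation p = 0.8, two-sided), though Ube2f had another probe that went the opposite way, described with the other probes below. The Ube2f probe nearest the 3′ end differed by 0.48 and did not pass the threshold, so the Ube2f rise rests on 1 of 3 probes. Ube2l6, which carries the interferon-induced Isg15, was well above background on 1 blastocyst array and could not be tested.

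The 2 enzymes that serve the anaphase-promoting complex, the ligase that ends mitosis and meiosis, moved apart. Ube2c, which starts the chains on its substrates, was at 0.91 and 1.55 in ooplasts and at 4.47 to 5.10 in blastocysts, a rise of 3.54 ± 0.25 (adjusted p from limma 4.2e-05). Ube2s, which lengthens those chains, was at 9.06 and 8.86 in ooplasts and at 6.09, 5.04, 6.69 and 5.54 in blastocysts. It fell by 3.12 ± 0.47 (adjusted p from limma 0.00121). These levels come from a probe without a RefSeq mRNA accession that the files place on chromosome 9, whereas the probe with such an accession lies on chromosome 7. The latter, at 8.87 and 8.74 in ooplasts and 4.72 to 6.28 in blastocysts, fell by 3.36. The difference Ube2c minus Ube2s within each array, with the chromosome 9 probe for Ube2s, rose by 6.66 from ooplasts to blastocysts with no overlap, and the exact permutation p of 0.0667 was the smallest that 4 arrays against 2 can give. All exact permutation tests given here are two-sided and share that limit.

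Chains linked through lysine 63, which signal in DNA repair and inflammation, are made by Ube2n together with one of the variants Ube2v1 and Ube2v2, which lack catalytic activity of their own. Ube2v1 rose by 5.03 ± 0.27 (adjusted p from limma 1.9e-05), from -1.08 and -0.66 in ooplasts to between 3.98 and 4.35 in all 4 blastocyst samples. Its 3 probes all rose, by 1.93 to 5.03. Ube2v2 rose by 2.91, and it was well above background on only 1 of the ooplast arrays. The brightest Ube2n probe fell by 3.01 ± 0.27, from 6.03 and 6.24 to between 2.83 and 3.36, while a second Ube2n probe rose by 1.76, so the direction for the catalytic partner depends on the probe.

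The Ube2d and Ube2e enzymes, which work with many ligases, mostly fell or did not pass the threshold. Ube2d2 fell by 4.27 ± 0.27 (adjusted p from limma 2.81e-05), from 6.62 and 6.85 in ooplasts to between 2.19 and 2.63, and its 3 tested probes fell by 0.96 to 4.27. Ube2d3 fell by 2.52, with 1 of its 4 tested probes at 0.17. Ube2d1 was not well above background on any array. Of the Ube2e genes, Ube2e3 rose by 2.22 and Ube2e2 fell by 1.72, whereas Ube2e1 was at -0.15, or 0.24 after normexp background correction. The fall of Ube2e2 was lost without the climacteric ooplast array, at -1.05.

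Among enzymes that work at DNA lesions and on histone H2B, Ube2a and Ube2b are the mouse forms of yeast Rad6. Ube2a rose from 2.34 and 2.09 to between 3.44 and 4.15, by 1.61 ± 0.27 (adjusted p from limma 0.00189), and its second probe rose by 5.80. Ube2b had a stage difference of -0.07 by its brightest probe and 0.29 after normexp correction. Of its other tested probes, one rose by 3.17 and another fell by 1.31, both past the threshold, and a further one was at 0.03. Ube2t, the E2 of the Fanconi anaemia pathway, fell by 1.63, with a second probe at -2.14, and the call of the first was lost without the climacteric ooplast array at -1.20. Its counterpart Usp1, which removes the ubiquitin that Ube2t places, was high in every sample at 6.20 to 7.33 and differed by -0.49, or 0.19 after quantile normalization.

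The E2 enzymes that dispose of misfolded proteins at the endoplasmic reticulum also went separate ways. Ube2g2 fell by 1.73, a call lost without the young (-1.93) or the climacteric (-1.53) ooplast array, and Ube2g1 was at -0.59, not past the threshold. A second Ube2g1 probe fell by 1.18 (adjusted p from limma on single probes 0.0458). Ube2j2, an E2 anchored in the membrane, rose by 1.97, and it was well above background on only 1 of the ooplast arrays. Without the climacteric ooplast array its difference was 0.86 and lost the call. Another Ube2j2 probe rose by 1.51, while the one nearest the 3′ end was at -0.43 and did not pass. Its partner Ube2j1 had 2 probes that contradicted each other. Usp19, a deubiquitinase with a form anchored in the same membrane, fell by 3.95 ± 0.32 (adjusted p from limma 7.88e-05), from 5.49 and 5.84 to between 1.02 and 2.25.

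Other E2 enzymes included large movers in both directions. Ube2q1 rose by 4.33 ± 0.34 (adjusted p from limma 6.69e-05), from -0.54 and -1.03 to between 3.21 and 3.90. Ube2l3, which serves HECT and RBR ligases, rose by 3.99 ± 0.33, from -0.86 and -1.32 to between 2.59 and 3.33, and its second probe rose by at least 20.3-fold. Ube2q2 rose by 1.60, and the call was lost without the young ooplast array, at 0.95. In the other direction Ube2h, the E2 of the CTLH ligase, fell by 3.08 ± 0.27 (adjusted p from limma 0.000101), from 3.24 and 2.47 to between -0.46 and 0.12. Of the other Ube2h probes, one fell by 1.23 and one was at 0.40, not past the threshold. Ube2o, a large enzyme that joins E2 and ligase functions, fell by 0.95, which lost the call after normexp correction (-0.56) and without the young ooplast array (-0.72). Ube2r2 (-0.59), Ube2w (1.28) and Ube2z (-0.01, and 0.00034 after quantile normalization) did not pass the threshold, while Ube2w did pass it after quantile normalization at 1.44. Another Ube2r2 probe rose by 1.16 (adjusted p from limma on single probes 0.0218).

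**Figure D2:**
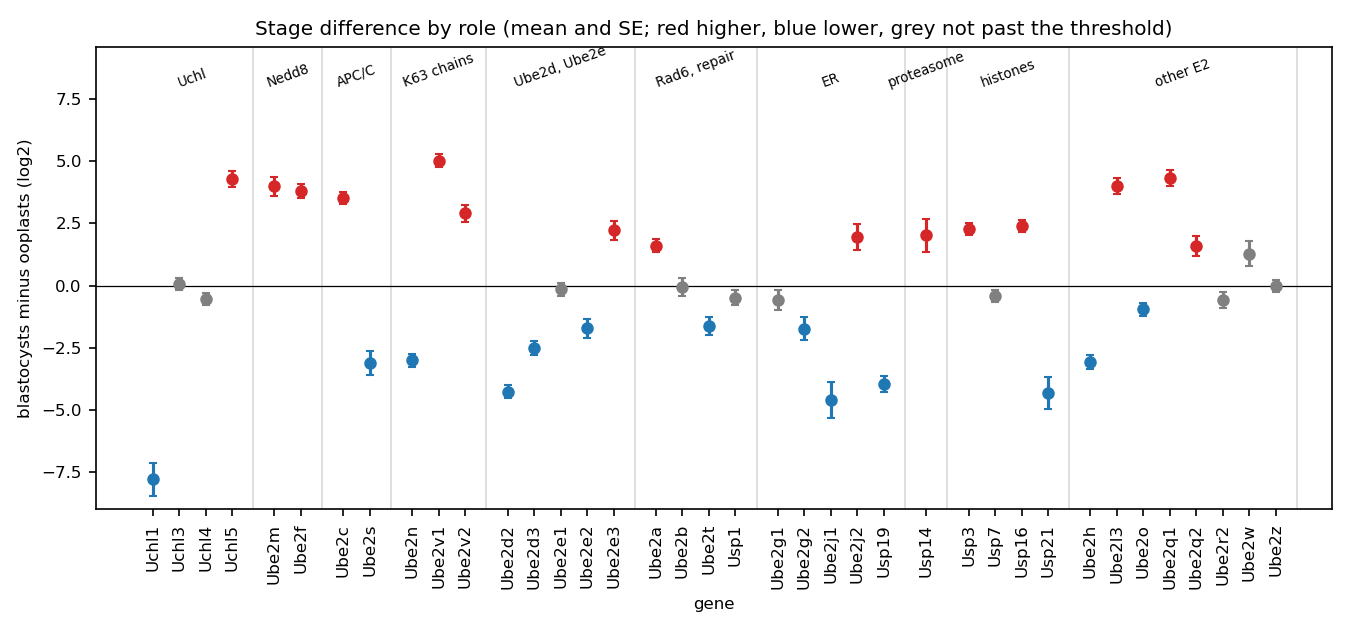
Difference between blastocysts and ooplasts on the log2 scale for members grouped by role, 1 probe per gene, with the standard error of the limma fit as bars. Red genes were higher and blue genes lower in blastocysts at an adjusted p under 0.05, and grey genes did not pass. Within the groups for the anaphase-promoting complex (APC/C), lysine 63 chains and the endoplasmic reticulum (ER), red and blue stand side by side, as with Ube2c at 3.54 and Ube2s at -3.12.

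The largest falls among the Usp genes were those of Usp15, Usp2 and Usp42, followed by Usp28, Usp36 and Usp30. Usp15, which acts on receptors and Smads of the TGF-beta pathway, was at 6.60 and 7.23 in ooplasts and at -0.30, -0.46, 0.04 and -0.63 in blastocysts. It fell by 7.25 ± 0.31 (adjusted p from limma 1.13e-05), or 153-fold, and all 4 of its tested probes fell, by 1.91 to 7.25. Usp2, a deubiquitinase of cyclin D1 and of clock proteins, fell by 6.27 ± 0.63, from 2.52 and 3.54 to between -4.73 and -1.79. On one young blastocyst array Usp2 was not well above background. Usp42 fell by 5.78 ± 0.53 and its relative Usp36, a nucleolar enzyme, by 4.55 ± 0.66, and neither overlapped between stages.

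Usp28, known for keeping the Myc protein stable, fell from 6.78 and 7.11 to between 2.11 and 2.58, by 4.57 ± 0.27 (adjusted p from limma 2.4e-05). Usp30, which sits in the outer membrane of mitochondria and opposes their removal by Parkin, fell from 6.27 and 6.23 to between 1.65 and 1.98. It fell by 4.41 ± 0.25 (adjusted p from limma 2.04e-05), and its second probe fell by 1.53. Usp52, the Pan2 subunit, fell by 3.21 ± 0.33. Smaller falls were those of Usp31 (-3.10), Usp54 (-2.67), Usp38 (-2.40), Usp47 (-1.67) and Usp46 (-1.26). A further Usp38 probe was at -0.19 and a further Usp46 probe at -0.50, neither past the threshold. Usp13 fell by 2.48, and it was well above background on only 2 of the 4 blastocyst arrays.

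The rises among the Usp genes were led by Usp37, a deubiquitinase of cyclin A, at 5.83 ± 0.72 (adjusted p from limma 0.000491). It was at -4.31 and -1.64 in ooplasts, well above background on only the climacteric array, and at 2.16 to 3.24 in blastocysts. With a filter that asked for detection on all 6 arrays, another Usp37 probe stood for the gene at 0.18, so this rise rests on 1 of 3 probes. Usp4, the closest relative of Usp15, rose from 1.34 and 0.81 to between 4.76 and 5.19, by 3.93 ± 0.27 (adjusted p from limma 4.13e-05), and its second probe rose by 2.20. Usp25, the closest relative of Usp28, rose by 4.06 ± 0.56, from -1.27 and -4.23 to between 0.53 and 1.72, and it was well above background on the young ooplast array only. Usp34, an enzyme of the Wnt pathway, rose by 3.23 at its brightest probe. Usp48 rose by 2.06 and Usp45 by 1.73, the latter lost without the young ooplast array at 0.76. The Usp45 probe nearest the 3′ end was at -0.04 and did not pass, so the Usp45 rise rests on 1 of 2 probes.

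A further 4 Usp genes did not stand well above background in either ooplast sample. Usp24 rose by at least 5.10-fold and Usp12 by at least 4.13-fold. Usp5, which takes apart free ubiquitin chains, rose by at least 3.19-fold, with levels of -1.30 to 0.09 in blastocysts, and its fitted difference of 2.34 became 0.56 and lost the call after normexp correction. Usp40 passed the threshold at 1.87, but its sign turned to -0.29 after normexp correction, the call was lost without the climacteric ooplast array (1.53), and its bound gave no fold.

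Deubiquitinases of histones did not move as a group. Usp16, which removes ubiquitin from histone H2A before mitosis, rose from 2.54 and 2.75 to between 4.87 and 5.15, by 2.39 ± 0.25 (adjusted p from limma 0.000209). Usp3, which acts on H2A and H2B, rose by 2.27 at its brightest probe and fell at its other 2 probes. Usp21, another enzyme of H2A, fell by 4.33 ± 0.63, from 2.76 and 4.02 to between -2.05 and 0.10. Usp7, which controls Mdm2 and p53, lay between 6.32 and 7.04 on every array, with a difference of -0.42 that became 0.21 after quantile normalization. Usp22, the deubiquitinase of the SAGA coactivator, was well above background on 1 blastocyst array only, and Usp44, of the spindle checkpoint, on none.

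Usp14, which edits chains on the proteasome, rose by 2.03 ± 0.66 (adjusted p from limma 0.03), but it was at 0.83 in young and -2.21 in climacteric ooplasts and without the latter the difference was 0.55 and lost the call, as it did without the first (1.68) or second (1.95) climacteric blastocyst array. Its other 2 probes, dark in ooplasts, rose by at least 2.90-fold and 1.80-fold. Usp8, of endosomal sorting, differed by 0.62. Usp10, the partner of G3bp1, lay at 5.92 to 7.28 with a difference of -0.51 that became 0.00035 after quantile normalization. Usp39, a splicing factor without protease activity, differed by 0.78, Usp20 by 0.31, Usp43 by 0.22, Usp11 by -0.60, Usp32 by -0.84 and Usp53 by -0.81. Usp43 changed sign to -0.52 after normexp correction. Usp6nl, the Rab regulator, was not well above background in ooplasts and differed by 0.38.

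The remaining 10 members could not be tested because they were not well above background on every array of either stage. Ube2d1, Ube2u, Usp18, Usp26, Usp44 and Usp50 passed on no array by the probe that stood for them, and Ube2l6, Usp22, Usp27x and Usp49 passed on 1 blastocyst array each. Of the 192 member probes, 32 were well above background on no array and 98 on all 6.

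Close relatives and functional partners were compared by taking the difference of the levels of both genes within each array and asking how that difference changed between stages, which shows unequal change. The 22 pairs were assembled with the values known, so their number and choice carry no weight of their own. In 9 pairs both genes were called in opposite directions, in 6 in 1 direction, and in 7 not both were called. The share of such pairs among all genes was not computed. Each gene was taken at its brightest probe. Of the called genes, Ube2n, Ube2j1, Ube2f and Usp33 had another probe past the threshold in the opposite direction, so their pairs depend on the probe. Usp4 against Usp15 changed by 11.18, Usp25 against Usp28 by 8.63 and Uchl5 against Uchl1 by 12.09, each without overlap (exact permutation p = 0.0667). Usp5 against Usp13, a pair of similar chain-binding enzymes, changed by 4.82, and Usp12 against Usp46, which share the cofactor Wdr48, by 4.38. Usp5 and Usp12 were not well above background in either ooplast sample, and Usp13 was so on only 2 blastocyst arrays. The sizes of these changes are therefore uncertain. Ube2e2 against Ube2e3 changed by -3.94 and Ube2v1 against Ube2n by 8.04. In contrast Ube2q1 and Ube2q2 rose together, as did Ube2v1 and Ube2v2, Ube2f and Ube2m, and Usp16 and Usp45. Another Usp45 probe did not pass the threshold. Ube2d2 and Ube2d3 fell together, and so did Usp36 and Usp42, whose difference changed by 1.22 with overlap (exact permutation p = 0.2).

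**Figure D3:**
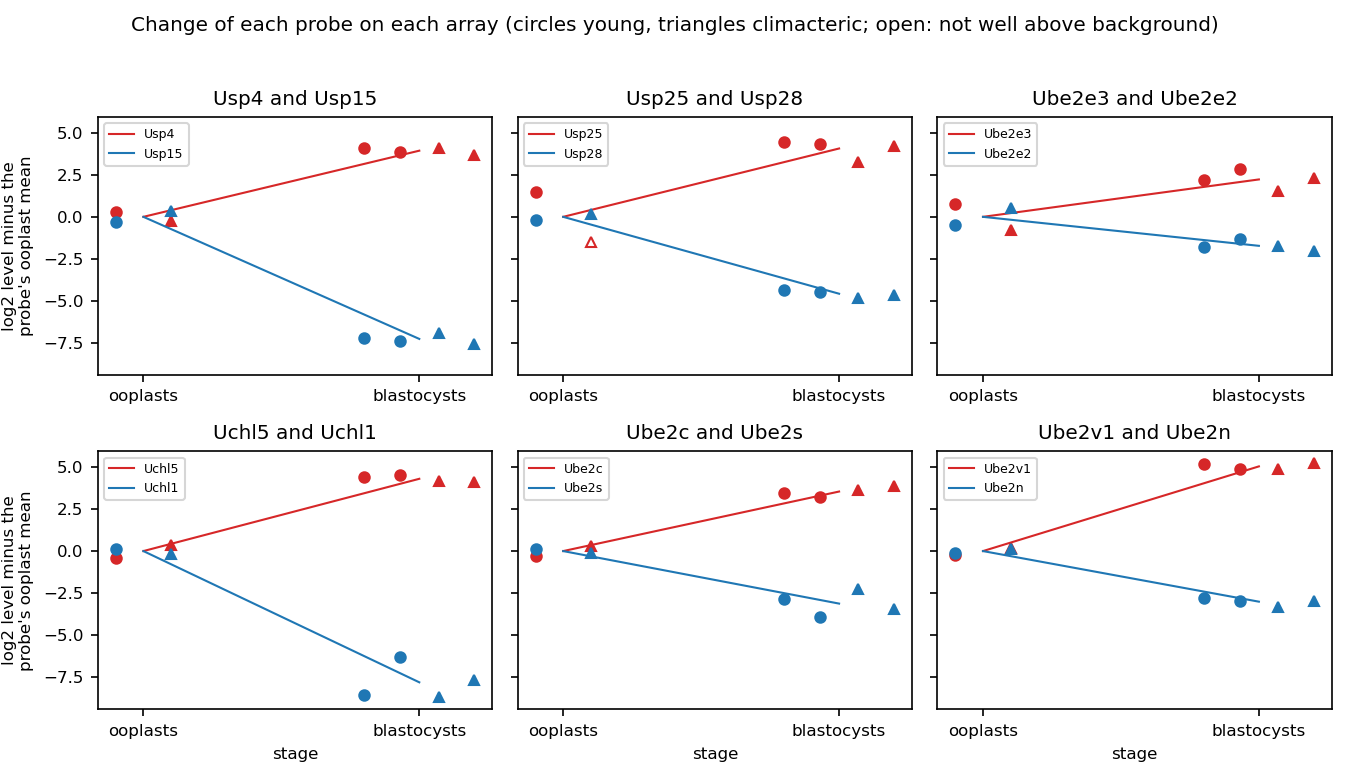
Level of each gene on each array minus that probe's own mean over the 2 ooplast arrays (log2), for 6 pairs of relatives or partners. Circles are young and triangles climacteric samples, open symbols were not well above background, and lines join the means of the stages. In each panel the red gene lies above 0 and the blue gene below 0 on all 4 blastocyst arrays, furthest apart for Uchl5 (4.29) and Uchl1 (-7.80). A second Ube2n probe, not drawn, rose by 1.76.

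The windows before Usp25, which rose, and Usp28, which fell, are shown as a pair of close relatives with opposite changes. They lie on the plus strand of GRCm38.p6 at chr16:77013819-77014068 and chr9:48985135-48985384, again with GC boxes in capitals.
Usp25: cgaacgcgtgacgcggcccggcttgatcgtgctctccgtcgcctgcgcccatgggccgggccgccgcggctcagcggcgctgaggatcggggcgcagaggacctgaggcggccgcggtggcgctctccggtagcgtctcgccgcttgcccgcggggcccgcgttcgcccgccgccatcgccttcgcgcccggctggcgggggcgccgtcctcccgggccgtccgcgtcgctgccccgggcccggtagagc
Usp28: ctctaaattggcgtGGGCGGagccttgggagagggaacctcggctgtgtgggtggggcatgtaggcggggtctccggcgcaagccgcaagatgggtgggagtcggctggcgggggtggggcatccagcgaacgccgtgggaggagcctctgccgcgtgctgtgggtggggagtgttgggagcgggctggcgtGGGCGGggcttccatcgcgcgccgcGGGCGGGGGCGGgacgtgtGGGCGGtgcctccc
The Usp25 window was 80.0% G and C without a GC box, and the Usp28 window was 73.2% G and C with 5. In the Uchl pair the gene that rose had the GC boxes, and in the Usp pair the gene that fell had them.

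The other genes of the pathway also split between the directions, as did all genes tested, of which 35.5% rose and 39.0% fell. Of 9 tested genes for ubiquitin itself and the activating enzymes, 4 rose and 2 fell, among them the Sumo activating subunit Sae1 (3.12), which rose, with the main activating enzyme Uba1 at -0.45 and not past the threshold. Of 6 ubiquitin-like modifiers 4 rose and 1 fell, and Nedd8 rose by 2.46. The activating enzyme of Nedd8 did not follow the brightest probes of its conjugating enzymes, since Nae1 fell by 1.98 and Uba3 by 0.93. For Ufm1 both the modifier (4.04, well above background on 1 of the ooplast arrays) and its conjugating enzyme Ufc1 (5.56) rose. Ufc1 was 1 of 2 genes that rose, and none fell, among 7 conjugating enzymes with other names.

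Among 24 tested deubiquitinases of other families, 9 rose and 12 fell. The proteasome's own deubiquitinase Psmd14 rose by 5.77 and Brcc3 by 5.92. Otub2, not well above background in any blastocyst sample, was at least 22.4-fold lower there. With Uchl5 and its activator Adrm1 (2.86), Psmd14 and Usp14 make up the deubiquitinases of the proteasome and their docking site, a set put together after the values were seen, and all 4 rose, with the limit on Usp14 given above. Of 6 tested Senp proteases 2 rose and 3 fell. Senp3, which acts on Sumo, rose by 4.60, and Senp8, which acts on Nedd8 and not on Sumo, fell by 5.98. HECT and RBR ligases, the partners of Ube2l3, gave 10 rises and 12 falls of 28, and cullins with their core subunits 8 rises and 4 falls of 16, with Rnf7 at 6.65 and Cul1 at -3.58. The 5 tested cofactors of Usp enzymes held Wdr48 (1.55) and G3bp1 (2.44), which rose, and Wdr20 (-4.38) and Eny2 (-2.26), which fell. These counts stand beside 35.5% of all genes tested that rose and 39.0% that fell, and no list was tested as a set. The medians of these lists ran from -2.17 for the Senp proteases to 1.91 for the ubiquitin-like modifiers, beside -0.26 for all genes.

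Many members were measured by more than 1 probe, and these did not always tell the same story. Of the 83 genes 61 had several probes, and of 40 genes with at least 2 tested probes 25 had all of them on 1 side of 0 and 19 had all past the threshold on 1 side. In 9 genes probes passed the threshold in both directions, among them Ube2b, Ube2f, Ube2j1, Ube2n, Usp3, Usp33, Usp34 and Usp37. These counts were not taken over all genes, so they do not set the members apart. Spaced probes of all genes differed about as often as those of members, as given below. The range over the probes of a gene had a median of 1.90 and a maximum of 10.75, the latter in Usp37. Counting all 140 tested probes, 50 rose (35.7%) and 56 fell (40.0%), beside 35.6% and 38.2% of 20983 probes of all genes. For these genes the direction given above is that of the brightest probe.

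The probes of Ube2j1 were 1253 bases apart on chromosome 4 of mm8, the build of the files. The probe at 33379813 to 33379872 fell by 4.60, from 8.48 in young and 5.51 in climacteric ooplasts to 2.21 and 4.84 (young) and 0.98 and 1.54 (climacteric) in blastocysts. The upstream probe at 33378560 to 33378619 rose by 4.45, from -1.20 and -1.21 to between 2.65 and 3.71. Both carry a RefSeq accession of the gene, and neither stage overlapped with the other at either probe.

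In Usp37 on chromosome 1 the probe nearest the 3′ end, at 74369295 to 74369354, fell by 4.92, the next, at 74371281 to 74371340, differed by 0.18, and the one at 74372432 to 74372491 rose by 5.83. Usp34 had probes at 3.23, -3.71 and 1.41 along chromosome 11. Usp3 rose by 2.27 at one probe and fell by 1.35 and 2.00 at the others. Ube2f had a probe that fell by 4.34, which was at 5.49 in young and -1.68 in climacteric ooplasts and at -3.40 to -1.13 in blastocysts, so that fall rests on the young ooplast array. Usp33, called at -0.76, lost its call in 11 of the other settings and had a probe that rose by 1.80.

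Where a gene had probes at least 100 bases apart, the one nearest the 3′ end was lower in its stage difference than the one furthest from it in 20 of 31 members (64.5%), against 49.95% of 3227 genes. Such probes differed by over 2-fold in 67.7% of these members and 71.2% of these genes. Whether these probes lie in different transcripts was not tested. Usp15 was an ordered case: its stage differences were -7.25, -4.10, -3.84 and -1.91 from the 3′ end upward on chromosome 10, over 19286 bases.

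**Figure D4:**
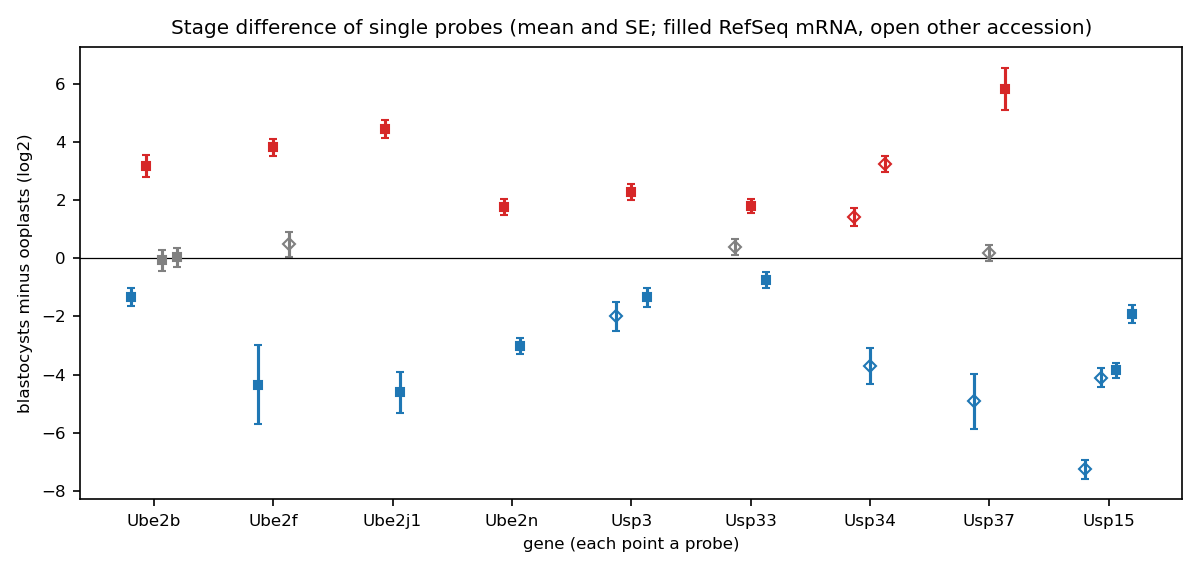
Difference between blastocysts and ooplasts (log2, bars show the standard error of the fit) of every tested probe of genes whose probes passed the threshold in both directions, and of Usp15 for contrast. Filled squares are probes with a RefSeq mRNA accession and open diamonds those with another accession. Red is higher and blue lower at an adjusted p under 0.05, and grey did not pass. In Usp37 the probes span from -4.92 to 5.83, whereas all 4 Usp15 probes lie below 0.

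In blastocysts no member passed the adjusted threshold for the age of the female. None of 73 members and none of 15971 genes (0%) was called (limma on the 4 blastocyst arrays), and 2 members and 864 genes had an unadjusted p under 0.05. The member median was -0.098 beside 0.0072 for all genes, and its sign turned under 3 other scalings, at 0.017 to 0.058. The difference had the same sign on both slides in 34 of 73 members (46.6%) and in 51.0% of all genes. In 22 members (30.1%) the ages did not overlap, and in 30.0% of all genes.

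Ube2j1, by its brightest probe, had the lowest difference, -2.26 ± 0.88 (SE, 2 arrays against 2, adjusted p from limma 0.914), with -1.23 on slide 1 and -3.30 on slide 2. Usp5 was at 1.11 ± 0.30 (adjusted p from limma 0.696), with 0.82 and 1.39 on slides 1 and 2, and both climacteric samples lay above both young ones. These are the 2 members with an unadjusted p under 0.05. Usp2, at 1.25, had 2.94 on slide 1 and -0.44 on slide 2. Usp42, at 1.01, had 0.01 and 2.01, and rests on 1 young sample at -1.05. Usp40 (0.86) and Usp43 (0.68) were the other members among the highest 5. Uchl1 (-0.74), Usp25 (-0.66), Usp37 (-0.62) and Ube2e3 (-0.62) stood with Ube2j1 among the lowest 5, and without the second young replicate the Uchl1 difference was 0.38. The mean level of 8 macrophage markers was -1.64 in the first climacteric replicate, with 5 of them well above background. It was -3.61 and -3.20 in the young replicates and -3.49 in the second climacteric one, with 3, 3 and 4 of them well above background. Their part in these age differences was not tested.

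In ooplasts there was 1 array per age and therefore no replicate check and no test. Of 61 members well above background on both arrays, 9 were at least 2-fold higher in the climacteric sample, where 7.36% of all 12292 genes were, and 4 at least 2-fold lower, where 9.86% were. The highest were Usp45 (1.92 on the log2 scale), Usp11 (1.55), Usp36 (1.30), Usp21 (1.26) and Ube2q2 (1.17). The lowest were Ube2j1 (-2.97, or 7.84-fold), Ube2e3 (-1.53), Ube2b (-1.24), Ube2w (-1.02) and Usp33 (-0.95). The upstream Ube2j1 probe, described above, had almost equal levels in both ooplast samples, so the Ube2j1 difference rests on a single probe. Usp14, Ube2v2 and Ube2j2 were well above background in the young sample only, which puts them at least 8.13-fold, 2.51-fold and 2.14-fold lower in the climacteric sample. A further 4 members also passed on 1 ooplast array and had bounds under 2-fold: Usp25 (1.90) and Usp39 (1.72) lower, and Usp37 (1.58) and Usp43 (1.54) higher in the climacteric sample. The mean level of 8 macrophage markers was -2.65 in the young and 0.16 in the climacteric sample, with 3 and 6 of them well above background, and the part of other cells in these age differences was not tested. Cumulus cell markers were at -1.22 and -1.10.

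**Figure D5:**
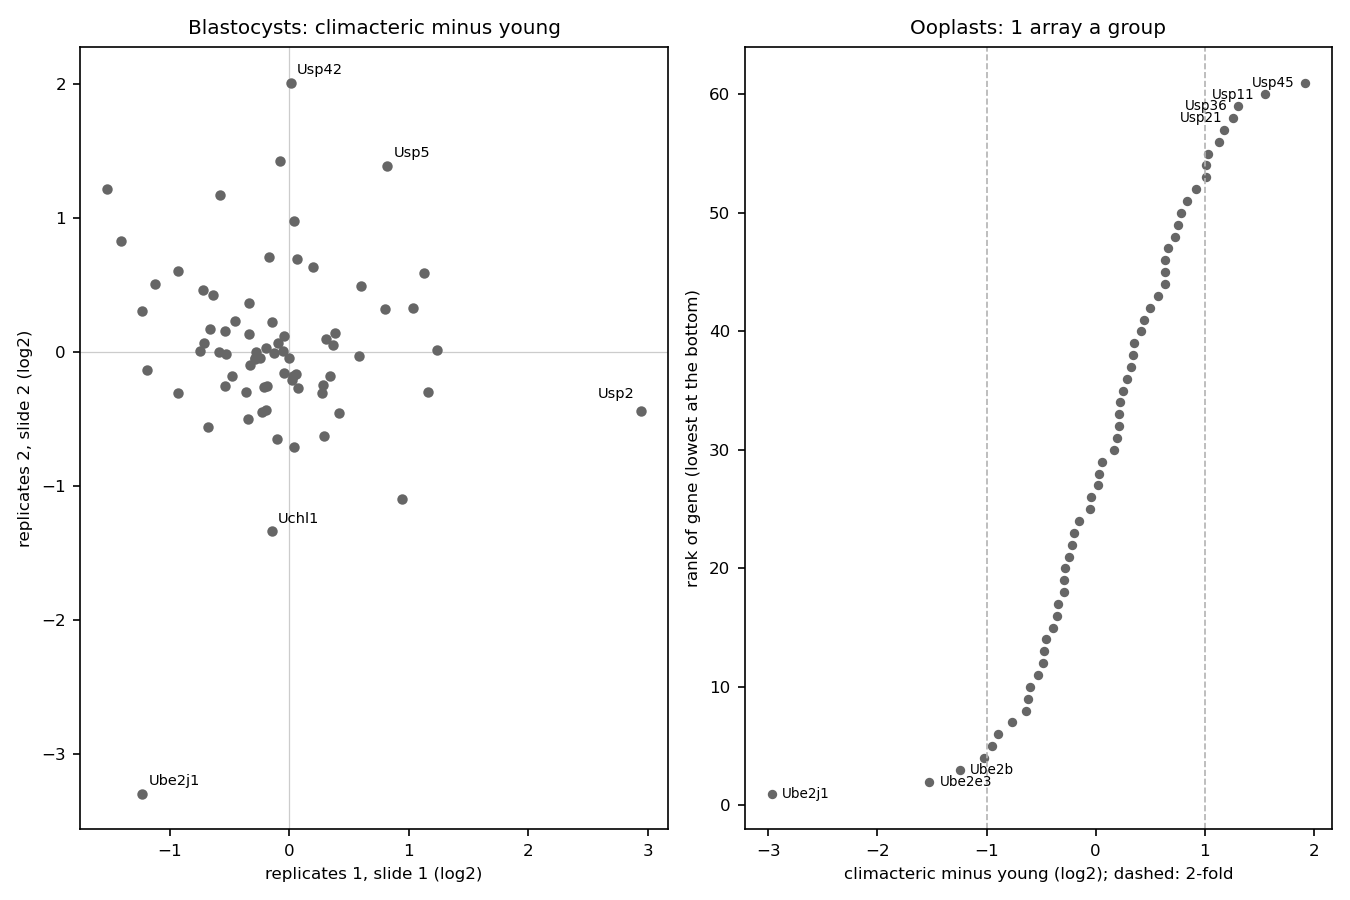
Left, climacteric minus young difference (log2) in blastocysts for the 73 tested members, replicates 1 on slide 1 against replicates 2 on slide 2. Right, the same difference between the 2 ooplast arrays for 61 members, ranked, with dashed lines at 2-fold. Points on the left lie on both sides of 0, with 34 of 73 members of 1 sign on both slides, and on the right Ube2j1 stands lowest at -2.97.

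The difference between the age effects of the stages was tested as an interaction, with the ooplast arrays assumed to vary like the blastocyst arrays. No member passed (limma on 6 arrays), where 133 of 15605 genes did (0.852%), 5 of them above 0 (0.0320%) and 128 below (0.820%). At an unadjusted p under 0.05 there were 6 members and 1219 genes. These members were Usp37 (3.29), Usp14 (-2.96), Usp25 (-2.30), Ube2j2 (-2.21), Usp45 (1.94) and Usp24 (1.78), as the age difference in ooplasts minus that in blastocysts on the log2 scale. Of these, Usp45 alone was well above background on both ooplast arrays. This comparison and the others use the same arrays, so their values are not independent. The Ube2j1 probe that was lower with age in ooplasts was also the lowest in blastocysts, and its interaction did not pass. The gene's other probe did not share the difference in ooplasts.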

How the data were processed

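Intensities were measured on 6 arrays with 1 dye. RNA was purified with a column kit, not treated with DNase, and labelled as cRNA, per the labels' protocols. The authors' deposited intensity is the processed signal of Agilent Feature Extraction, per the file headers (9.5 in the submitters' processing notes), and the headers name mm8 for the probe positions. The authors also deposited a table of log2 values, which lay within 0.00075 of a linear quantile normalization of the processed signal, with a median of 6.25 in each column; scale, centring and direction follow from that match.

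The members and lists were chosen with earlier results of these data known. Each processed signal was taken to log2 and the 75th percentile of its array over non-control spots was subtracted. The filter took probes that the scanner software marked as well above background throughout 1 or more of the groups compared, and of a gene's kept probes the one with the highest mean stood for it, which favours bright probes. Tests used lmFit and eBayes of limma 3.58.1 under R 4.3.3, were two-sided, took p-values adjusted over all genes by Benjamini-Hochberg with a threshold of 0.05, and were tested on simulated data. Members kept the files' names, and other genes were named through the RefSeq table of GRCm38.p6, used for names and promoters and not for positions of probes. Exon and UTR positions were not used here. Named in full were the 10 largest rises and falls, up to 6 bounds each way, the 5 highest and lowest by age, a fixed list of enzymes by role, and genes whose probes disagreed. Ube2k was on that list and is not among the members. Members that other genes resemble were not sought. Results for a few genes are not reported here. Alternatives were other scalings, background correction, filters, probe choice, names, a replicate block, subsets by age or slide and leaving out each array. Added after seeing the data was a fit on probes with a RefSeq mRNA accession.

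Replicate numbers 1 and 2 are shared by the blastocyst groups and coincide with the slides. Deviations of same-numbered samples correlated at 0.17 over 2 pairs, too few to treat the numbers as pairs.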

Additional observations from a re-analysis of the deposited data

Results flagged for a closer look

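For the 59 members described by name and tested for stage, each set of 4 blastocyst levels was searched for a single sample far from the others, which chance alone marks in about 1 in 20 genes. Usp42 stood apart in the second young replicate, at -1.05 where the other 3 blastocyst samples were at 0.86 to 0.96. Usp7 stood apart in the first climacteric replicate, at 6.32 where the others were at 6.52 to 6.56, a far smaller gap on the log2 scale.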

How the results depend on the processing

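Of 1046 stage values of named genes under other settings, 965 kept their direction and their side of the threshold, 44 lost the call, 11 gained one and 26 changed sign, and 32 of 45 called genes stayed past the threshold on the same side in every setting that tested them. With detection required on all 6 arrays 17 of 59 members rose (28.8%) and 27 fell (45.8%), beside 29.4% and 44.9% of 10911 genes, and with every probe counted 50 rose and 56 fell, at shares near those of all probes. Leaving out 1 array at a time gave 22 to 26 members up and 23 to 28 down, the lowest without the climacteric ooplast array, and 0 members called for age in blastocysts or for the interaction. With the replicate number as a block 26 members rose and 28 fell by stage, and 0 were called for age or for the interaction. The block moved Usp33 to -0.88 (adjusted p 0.0532 from limma). In ooplasts, without a filter on dim probes 14 members were at least 2-fold higher and 9 lower with age, and 8 were lower with every probe counted. Signs turned only for members with small differences or dim probes. After quantile normalization these were Uchl3 (-0.24), Usp1 (0.19), Usp7 (0.21), Usp10 (0.00035) and Ube2z (0.00034), and in the authors' deposited table Uchl3 (-0.24), Usp1 (0.19), Usp7 (0.19) and Usp10 (0.00031). Scaling on probes detected everywhere turned Uchl3 (-0.14), and normexp correction turned Ube2b (0.29), Ube2e1 (0.24), Usp40 (-0.29) and Usp43 (-0.52). On climacteric arrays only, Ube2b was at 0.47, Ube2z at 0.050, Uchl3 at -0.076 and Usp43 at -0.26. Leaving out single arrays moved Ube2b between -0.61 and 0.47, Ube2z between -0.077 and 0.075, Uchl3 between -0.076 and 0.19, Usp43 between -0.26 and 0.70 and, for age in blastocysts, Uchl1 between -1.86 and 0.38. The causes were not tested. Background after scaling lies lower on the brighter blastocyst arrays, which limits every member that is dim in ooplasts or in blastocysts. Ube2d1, well above background on no array, had a mean level of -4.32 in ooplasts and -5.87 in blastocysts. Falls to dim levels, as in Usp13 and Usp2, are therefore uncertain in size.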

Other observations

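Single probes that did not stand for their gene gave further values by age. In blastocysts a Usp34 probe was at -5.54 and -5.88 in young and at -2.71 and -3.34 in climacteric samples, a difference of 2.69 (limma on single probes, adjusted p 0.354). Its young levels were near those of Ube2d1 on the young blastocyst arrays (-5.49 and -5.81), which was well above background on no array. The size of the Usp34 difference is therefore uncertain. A Usp30 probe differed by 1.04 (adjusted p from limma 0.704). In ooplasts, with 1 array each, a Ube2f probe was 7.17 lower on the log2 scale in the climacteric sample, at 5.49 and -1.68, and a Usp38 probe was 3.61 higher, at -1.69 and 1.91. Outside the members, the deubiquitinase gene Otud3 was at -4.37 in the same comparison.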
